A study of Homo sapiens with 12 samples.

Results

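The isotype control arm of the co-culture is the state against which every antibody effect in the experiment is read. It comprised 3 of the 12 libraries, chosen by their labels: RNA from Jurkat and Raji cells cultured together for 24 h with isotype control antibody in place of both test antibodies, at 1, 0.1 and 0.01 µg/ml. Jurkat is a human T cell leukaemia line, named in the labels JurkatLAG3+PD1+, and Raji is a human Burkitt lymphoma B cell line, named Raji-PDL1. All 12 libraries share the superantigen SED, staphylococcal enterotoxin D, put on the Raji cells at 100 ng/ml, so the controls were exposed to it. No library without SED is analysed here, so how far SED stimulated the controls was not tested. The other arms received the anti-LAG3 antibody MK4280 with isotype, the anti-PD1 antibody MK3475 with isotype, or both antibodies, at the same 3 doses with 1 library each. The lines were kept under puromycin, with Geneticin added for Jurkat, and several wells were pooled into 1 pellet per condition. Nothing in the labels says that the 3 isotype libraries are replicates of one another. The p-values below thus reflect only how these particular libraries scatter, and that scatter may be technical.

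A superantigen binds MHC class II molecules on the presenting cell and the variable part of the T cell receptor (TCR) beta chain, and so engages the receptor without a specific peptide. Signals then pass through the CD3 chains and the kinases LCK and ZAP70 to transcription factors that induce immediate early genes, activation antigens and cytokines. PD1 and LAG3 are inhibitory receptors of T cells. PDL1 is a ligand of PD1, and LAG3 binds MHC class II. RNA of both lines was read together, so a level cannot be divided between the lines beyond what is known of a gene. Fewer cells of a line and less RNA per cell cannot be told apart.

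Depth was 36581754 counts for the 1 µg/ml library, 26457020 for 0.1 µg/ml and 27313108 for 0.01 µg/ml, and values below follow that order. Levels of different genes are compared as TPM. In this unit counts are divided by the deposited gene length and scaled to the same total in every library. For 11929 of 12571 genes checked at 1 TPM or above, that length lay within 5% of the exon union in the GENCODE 29 annotation. Such a union can be longer than any transcript of the gene, so TPM may understate genes with several transcripts against those with 1. Differences between libraries of the same gene are given as CPM, counts scaled to library size with edgeR's TMM factors. The table lists 55782 gene symbols, of which 20846 were counted in all 3 isotype libraries and 25258 in none. A mean of at least 1 TPM was reached by 14558 symbols, of at least 100 TPM by 1559 and of at least 1000 TPM by 119. A count of 0 is read as up to 3 counts, or 0.082, 0.113 and 0.11 CPM by library size, for counting error only.

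The identity of the culture was checked first on the markers of each line. CD3E, the CD3 epsilon chain of the TCR complex (GRCh38 chromosome 11, 118304545 to 118316175, plus strand), stood at 232, 212 and 219 TPM. LCK, the kinase that phosphorylates the CD3 chains (chromosome 1, 32251239 to 32286165, plus strand), stood at 309, 287 and 283 TPM. MS4A1, which encodes the B cell antigen CD20 (chromosome 11, 60455752 to 60470760, plus strand), stood at 350, 330 and 326 TPM. All 3 genes were thus well expressed in each library, with coefficients of variation of 4.44%, 4.69% and 3.83% over the 3.

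Of 24 T cell markers, 22 reached a mean of 1 TPM, and the median of the list was 45.1 TPM. TRBC1, a constant region of the TCR beta chain, was highest at 867, 705 and 652 TPM. CD3D stood at 433, 417 and 393 TPM. CD28, the receptor for CD80 and CD86, stood at 45.8, 43.5 and 48.2 TPM. CD4, the coreceptor for MHC class II, was close to the lower end at 1.23, 1.07 and 1.24 TPM. The 2 markers under 1 TPM were PTCRA, the pre-TCR alpha chain, at a mean of 0.326 TPM and LAT, the membrane adaptor downstream of ZAP70, at 0.434 TPM. In the GENCODE 29 annotation 49.7% of the exon bases of LAT are shared with other genes, and how the authors' counting treated reads in such stretches is not given in the sources used here.

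All 28 B cell markers reached 1 TPM, with a median of 138 TPM. The immunoglobulin kappa constant region IGKC stood at 8040.1, 6797 and 6739 TPM and the mu heavy chain IGHM at a mean of 3374 TPM. CD79A, a signalling chain of the B cell receptor, stood at 1032, 977 and 999.7 TPM. CD24 was the lowest at a mean of 1.09 TPM. Among the immunoglobulin light chains, IGLC1 had no count, whereas IGLL5 stood at a mean of 321 TPM. Sharing of exon bases with other genes was not examined for either, so the missing counts of IGLC1 are not read as lack of expression.

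Most markers of myeloid, erythroid, platelet, NK, stromal and epithelial cells were near the floor, whereas most plasma cell genes were not. All 10 myeloid markers were under 1 TPM, and CD14 stood at a mean of 0.107 TPM. All 9 erythroid and platelet markers were under 1 TPM, with 4 at 0 in every library. Of 10 NK cell markers, 9 were under 1 TPM. The exception was NCR3, an activating receptor, at 6.18 TPM. Of 10 stromal and epithelial markers, 8 were under 1 TPM. The exceptions were the collagen gene COL1A1 at 3.36 TPM and PECAM1, an adhesion molecule also found on leukocytes, at 17.2 TPM. Of 8 plasma cell genes, 7 reached 1 TPM, with a list median of 71.9 TPM. JCHAIN, which joins immunoglobulin polymers, was highest at 943 TPM. The 1 gene under 1 TPM was SDC1, which encodes the plasma cell antigen CD138, at 0.33 TPM.

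**Figure D1:**
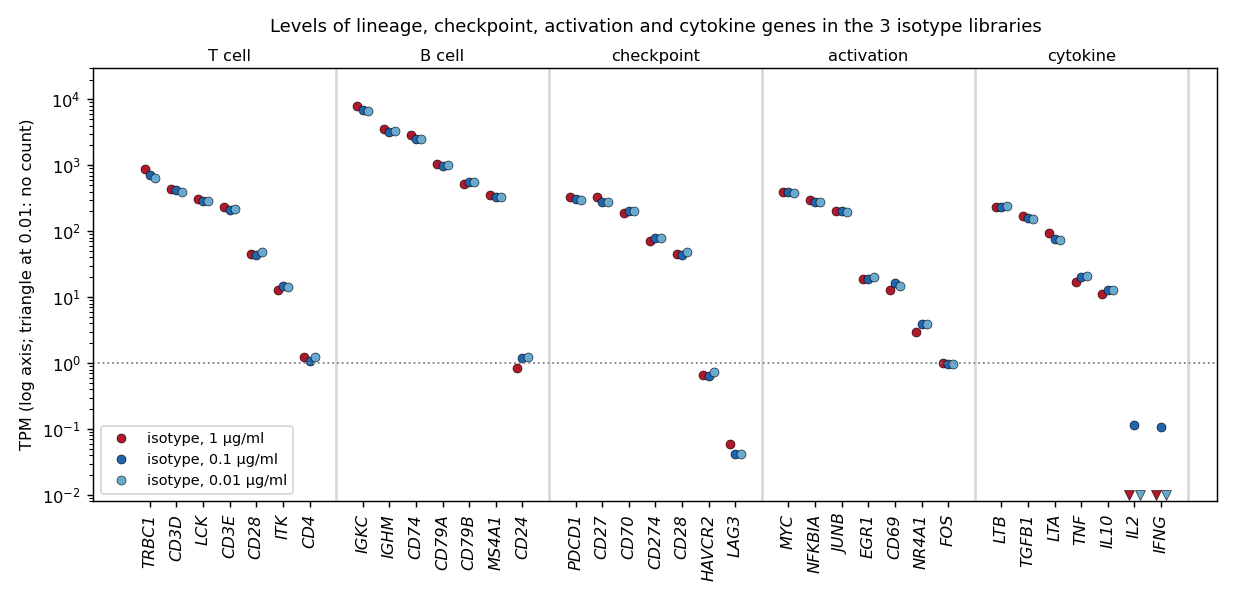
TPM (log axis) of 7 genes in each of 5 groups, with 1 point per isotype library coloured by dose; CD28 appears in 2 groups, triangles mark libraries with no count and the dotted line is 1 TPM. The 3 libraries lie close together for the expressed genes, whereas LAG3, IL2 and IFNG lie near or at 0.

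The genes named in the cell lines' labels were examined next. PDCD1, which encodes PD1, had 7792, 5118 and 4948 counts, or 335, 313 and 294 TPM, the highest mean of the 41 checkpoint and costimulatory genes in the table. CD274, which encodes PDL1, stood at 70.0, 78.8 and 78.9 TPM. LAG3 had 2, 1 and 1 counts, or 0.0594, 0.0423 and 0.0412 TPM. The 95% Poisson interval of its level reached up to 0.197, 0.211 and 0.204 CPM by library size. LAG3 RNA as counted here thus lay near the floor although the labels name LAG3 in the Jurkat line. Whether RNA from an introduced LAG3 gene would be counted under this symbol was not tested. PDCD1LG2, the other ligand of PD1, stood at 0.876 TPM, FGL1, a ligand of LAG3, at 0, and HLA class II genes are given below.

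Of the 41 checkpoint and costimulatory genes, 23 reached 1 TPM. The receptor CD27 stood at 326, 281 and 282 TPM and its ligand CD70 at 191, 203 and 204 TPM, so both sides of that pair were expressed. CD80 and CD86 stood at 20.7 and 41.4 TPM. CTLA4, the inhibitory counterpart of CD28, had no count in any of the 3 libraries, and neither had TNFRSF18 and TNFSF18. TIGIT and HAVCR2, inhibitory receptors of T cells, stood at 0.0851 and 0.681 TPM.

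Of 41 immediate early and activation genes, 33 reached 1 TPM, but their levels spanned a wide range. MYC, a growth regulator, was highest at a mean of 393 TPM, and NFKBIA, the inhibitor induced by NF-kB, stood at 295, 281 and 280.3 TPM. EGR1, a transcription factor of the immediate early response, stood at 18.9, 18.6 and 20.6 TPM. CD69, an early activation antigen of lymphocytes, stood at 12.9, 16.6 and 15.0 TPM. FOS stood at 0.98 TPM, the orphan nuclear receptor NR4A1 at 3.61 TPM, and NR4A2 had 1, 1 and 0 counts.

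Of 42 cytokine and chemokine genes, 28 were under 1 TPM and 7 had no count in any of the 3 libraries. IL2, the T cell growth factor, and IFNG each had 0, 1 and 0 counts, and the 95% Poisson interval of the single count reached up to 0.211 CPM by library size. LTB, a membrane-bound member of the TNF family, was highest at 230, 236 and 245 TPM. TGFB1 stood at a mean of 161 TPM, LTA at 81.3 TPM, TNF at 19.2 TPM and IL10 at 12.2 TPM. Of the receptors, the common gamma chain IL2RG stood at 201 TPM, whereas IL2RA, the inducible chain of the IL-2 receptor, stood at 1.62 TPM.

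The machinery between the receptors and these genes was largely present. Of 37 genes of proximal TCR signalling, 36 reached 1 TPM, with a median of 32.9 TPM. ZAP70 stood at 42.9, 42.7 and 43.5 TPM. Of 26 genes of B cell receptor signalling, 25 reached 1 TPM, with SYK at 140 TPM and BTK at 82.6 TPM. Of 39 proliferation genes, 37 reached 1 TPM. PCNA, the sliding clamp of DNA polymerase, stood at 1283 TPM and TOP2A at 353 TPM. The 13 cytotoxic genes were lower, with a median of 2.97 TPM and SRGN, which packs granule proteins, highest at 71.2 TPM.

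The superantigen receptor on Raji, MHC class II, was among the most abundant products. The 19 class II genes in the table, with CD74 and the regulators of the class, all reached 10 TPM. HLA-DRA, the alpha chain of HLA-DR, stood at 3354, 2977 and 2946 TPM and CD74, the invariant chain, at 2913, 2541 and 2542 TPM. CIITA, the coactivator that switches the class on, stood at 40.1, 45.1 and 45.4 TPM. Since class II genes share promoter elements read by the RFX and NF-Y factors, the 250 bases before the RefSeq start site (GRCh38.p14) are shown for CD74 (chr5:150412911-150413160, minus strand) and HLA-DRB1 (chr6:32589849-32590098, minus strand), 5′ to 3′. Capitals mark ATTGG or its complement CCAAT, the letters of the element bound by NF-Y, and, in HLA-DRB1 alone, the longer core of the X box.

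CD74: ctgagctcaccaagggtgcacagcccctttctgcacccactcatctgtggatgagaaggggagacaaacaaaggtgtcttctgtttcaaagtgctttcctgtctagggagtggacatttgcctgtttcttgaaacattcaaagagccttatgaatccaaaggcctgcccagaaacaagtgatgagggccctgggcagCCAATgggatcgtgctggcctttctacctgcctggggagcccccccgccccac

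HLA-DRB1: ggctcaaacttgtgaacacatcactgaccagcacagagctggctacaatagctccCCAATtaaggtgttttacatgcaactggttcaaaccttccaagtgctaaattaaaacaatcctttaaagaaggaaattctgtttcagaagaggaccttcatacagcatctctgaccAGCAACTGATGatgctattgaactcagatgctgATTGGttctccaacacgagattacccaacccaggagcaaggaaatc

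ATTGG on either strand was present in 12 of the 13 class II chain genes with a promoter in the RefSeq table, CD74 counted with them, against 32.7% of all 27305 promoters of the same length. The X box core, searched with 1 open base, was present in 2 of the 13, HLA-DRB1 and HLA-DRB5, and in 14 of the 27305. In HLA-DRB1 the X box match began 79 bases and the nearer ATTGG match 46 bases before the start site. These matches are a description of the letters and not of binding.

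Which genes head the list depended on whether length was taken into account. By counts, EEF1A1, which brings aminoacyl-tRNA to the ribosome, led with a mean of 22020.4 CPM by library size, followed by MT-CO1, ACTB and EEF2. By TPM the mitochondrial mRNAs led: MT-CO1, a subunit of cytochrome oxidase, stood at 21801, 20488 and 21307 TPM, and MT-CO3 at 24099.9, 20037 and 19333 TPM. The 15 highest genes by counts and by TPM shared 7 members, with median lengths of 2981 and 784 bp. Mitochondrially encoded genes were 5 of the first 15 and 12 of the second. Genes on 1 list alone included PABPC1, HSP90AB1, PTMA, ENO1 and RPL3 by counts and the short MT-ATP8, MT-ND4L and IGKC by TPM. The 13 mitochondrial mRNAs together took 4.09%, 3.68% and 3.71% of counts but 16.3%, 15.0% and 15.1% of TPM. The ranks and shares by TPM depend on the deposited lengths, which for most genes follow the exon union, so they may overstate the mitochondrial mRNAs.

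How far the 3 libraries differ was measured as the SD of the log2 ratio over 10156 genes with at least 100 counts in each of the 12 libraries. The 0.1 and 0.01 µg/ml libraries were the closest of all 66 pairs, at 0.099, against 0.0826 from counting alone. Only 3 genes differed by over 1.5-fold between them and none by over 2-fold. Their counts differed by more than counting error (chi-square over degrees of freedom 1.93), so they were not treated as 1 library. The 1 µg/ml library lay farther from both, at 0.156 and 0.165, which ranked 25th and 33rd of the 66 pairs, with 62 and 68 genes over 1.5-fold. Its nearest library was the combination at 0.01 µg/ml, at 0.109. The 1 µg/ml library therefore stood apart from the other 2 controls.

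**Figure D2:**
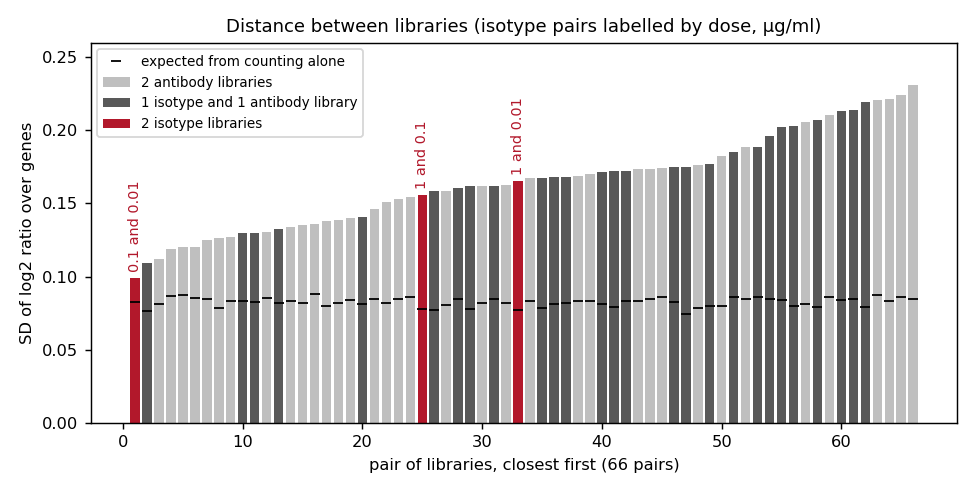
SD of the log2 ratio over 10156 genes for each of 66 pairs of libraries, ordered from the closest, with pairs of isotype libraries in red and the value expected from counting as a dash. The pair 0.1 and 0.01 µg/ml comes first at 0.099, and the pairs with the 1 µg/ml library come 25th and 33rd.

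The spread of the isotype arm was within the range of the other arms. Each arm holds 3 doses, and any dose effect of an antibody adds to the spread of its arm. These values are therefore not a measure of spread among replicates. The median SD of log2 CPM over 15535 genes was 0.0971 among the isotype libraries, against 0.0869 for anti-LAG3, 0.0939 for anti-PD1 and 0.103 for the combination. Without the 1 µg/ml library the isotype value was 0.0555, and without the 0.1 µg/ml library 0.0921. The mean log2 CPM of 23 T markers minus that of 28 B markers was close in the isotype libraries, at -1.21, -1.23 and -1.19. Of the 9 antibody libraries 8 lay above all 3 of these, at -1.18 to -0.98, and 1, anti-PD1 at 0.01 µg/ml, lay below at -1.26. This order held only in part by the median of markers, with the isotype libraries at -0.86, -0.90 and -0.80. Within that isotype range lay anti-PD1 at 0.1 and 0.01 µg/ml (-0.85 and -0.87). The combination at 1 and 0.1 µg/ml (-0.81 and -0.87) lay within it as well. The remaining antibody libraries lay above it, up to -0.61. In the 1 µg/ml library against the 0.1 µg/ml library 19 of 23 T and 25 of 28 B markers had a positive difference, with medians of 0.15 and 0.10 against -0.01 over all genes tested. With library size only 17 and 18 were positive, with medians of 0.10 and 0.05 against -0.06. The shift was not particular to these markers: 18 of 22 housekeeping and 27 of 39 proliferation genes were also positive (medians 0.08 and 0.08). Fewer were positive in other lists, at 19 of 37 proximal TCR genes and 10 of 21 sterol genes.

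Among 10504 genes with at least 100 counts in every isotype library, the highest CPM was at the 90th percentile 1.24 times the lowest and exceeded it by over 1.5-fold in 116 genes. In 112 of these 116 the 1 µg/ml library was the highest or the lowest. It was lowest in 83. In 41 of those 83 the other 2 isotype libraries lay above all 9 antibody libraries, and in 50 the 1 µg/ml library lay within the antibody range. Over all 10504 genes these positions were held by 812 and by 8012 (76.3%). The 1 µg/ml library was highest in 29, and above all 9 antibody libraries in 20 of them. The 116 genes were chosen by their range, which favours values outside the antibody range, so these counts are a description only.

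The genes with the widest range were of several kinds. NFKBIZ, a nuclear regulator of NF-kB, stood at 7.41, 15.5 and 17.8 CPM, the widest ratio at 2.41, with the 9 antibody libraries between 6.88 and 14.9 CPM. RN7SL2, an RNA of the signal recognition particle with many near-identical copies, stood at 78.4, 185 and 181 CPM, with a ratio of 2.36. SNHG12, a host gene of small nucleolar RNAs (minus strand of chromosome 1, 28578538 to 28583132), stood at 6.51, 14.1 and 13.8 CPM. NEAT1, a long noncoding RNA of nuclear paraspeckles (plus strand of chromosome 11, 65422774 to 65445540), stood at 11.9, 23.5 and 22.4 CPM. DDX39B, an RNA helicase of mRNA export, stood at 24.8, 49.4 and 49.8 CPM. For these 5 genes both lower-dose libraries lay above all 9 antibody libraries.

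The reverse order held for 3 of the 15. PTMAP4, a processed copy of the prothymosin gene, stood at 37.7, 20.7 and 17.7 CPM, and MT-TC, a mitochondrial tRNA, at 79.2, 45.1 and 40.2 CPM. The third was RP11-864N7.2, at 15.1, 9.02 and 7.45 CPM. The others of the 15, each lowest at 1 µg/ml, were GOLGA2P5, CCT6P1, MAPK8IP3, DDX12P, SDHAP1, LINC00969 and MIR142, with ratios of 1.92 to 2.26. Pseudogenes and copies such as GOLGA2P5, CCT6P1, PTMAP4 and SDHAP1 are uncertain, because reads may be divided between them and their relatives.

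**Figure D3:**
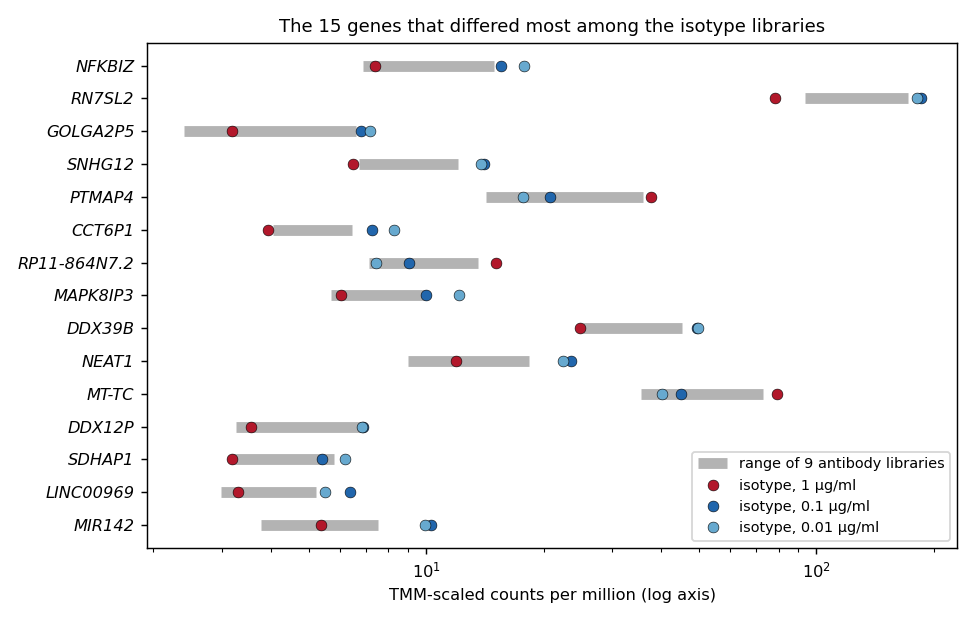
TMM-scaled CPM (log axis) of the 15 genes with the largest ratio of highest to lowest isotype library, with 1 point per isotype library and a grey bar for the range of the 9 antibody libraries. In 12 of the 15 the 1 µg/ml library is the lowest, and in 10 both other isotype libraries lie beyond the upper end of the bar. The latter held for 812 of all 10504 genes with at least 100 counts in every isotype library.

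The libraries were next compared 2 by 2 with edgeR's quasi-likelihood test. Each comparison sets 1 library against 1 library, and its error comes from how the antibody arms scatter about their own dose trends, so it tests these libraries and not the doses. All adjusted p below come from this test with Benjamini-Hochberg adjustment over 15535 genes, and an adjusted p under 0.05 is a call. At 1 against 0.1 µg/ml, 51 genes were higher (0.328% of those tested) and 22 lower (0.142%). At 1 against 0.01 µg/ml, 143 were higher (0.921%) and 42 lower (0.270%). Scaling by library size alone gave 18 higher and 16 lower, and 79 higher and 61 lower. DESeq2 called 41 higher and 2 lower, and 73 higher and 5 lower, but its filter gave no adjusted p for 13252 and 10240 of the 15535 genes. With the antibody arms fitted by a common dose factor, only 13 and 14 genes were called in all. At 0.1 against 0.01 µg/ml no gene was called in either direction (0%), with 305 at an unadjusted p under 0.05, and DESeq2 also called 0, with 8 at an unadjusted p under 0.05.

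Of 82 ribosomal protein genes tested, 9 were higher and none lower than at 0.1 µg/ml, and 20 were higher and none lower than at 0.01 µg/ml. Over all genes tested 0.328% and 0.921% were called higher. The list medians of the log2 difference were 0.15 and 0.17, against -0.01 and -0.01 over all genes tested. RPL28 stood at 1296 CPM against 989 and 944 CPM, above the 1033 to 1144 CPM of the 9 antibody libraries, a log2 difference of 0.39 ± 0.06 (SE, adjusted p = 0.00613) and 0.46 ± 0.06 (adjusted p = 0.000221). RPL37 stood at 861, 653 and 579 CPM and RPS27 at 886, 678 and 644 CPM. The list was chosen after its values were seen. With library size only, 4 were higher and 1 lower than at 0.1 µg/ml and 16 higher and 1 lower than at 0.01 µg/ml, and with the common dose factor 1 was called in each. Ribosomal protein genes have many processed copies, and the copy RPL10P9 was also called in both comparisons.

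A few genes of the B cell, of MHC class II and of the TCR were higher at 1 µg/ml. IGKC stood at 1294, 1025 and 1014 CPM, with log2 differences of 0.34 ± 0.06 (SE, adjusted p = 0.011) and 0.35 ± 0.06 (adjusted p = 0.00428). CD74 stood at 2853, 2334 and 2329 CPM (adjusted p = 0.0398 and 0.0223). Of 28 B markers, 2 were called higher than at 0.1 µg/ml and 4 than at 0.01 µg/ml, the latter with IGHM and VPREB3. Over all genes tested 0.328% and 0.921% were called higher. Other lists had calls too: HSPB1 of 16 heat shock genes against 0.1 µg/ml, and ACTB of 22 housekeeping and ALDOA of 22 glycolysis genes against 0.01 µg/ml. HLA-DRA was called only against 0.01 µg/ml (adjusted p = 0.0278, and 0.0604 against 0.1 µg/ml). Of 23 T markers, TRBC1 and TRBC2 were called against 0.01 µg/ml and none against 0.1 µg/ml. These 2 genes are near-identical copies, so their separate values are uncertain. CD27 was higher in both comparisons, at 141 CPM against 114 and 114 CPM (adjusted p = 0.0388 and 0.022). No B or T marker was called lower. With the common dose factor no B marker and no class II gene was called. With library size only, 1 B marker was called higher in each comparison. Of class II genes 0 were then called against 0.1 µg/ml and 1 against 0.01 µg/ml. None of 29 checkpoint and costimulatory genes, CD27 among them, was called in either comparison with library size only. DESeq2 called none of the 29 against 0.01 µg/ml.

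CD3E, LCK, MS4A1, PDCD1, CD274 and CD69 passed in neither comparison. LCK came closest among the T markers named at the outset, with a log2 difference of 0.22 ± 0.06 (SE, adjusted p = 0.0775) against 0.01 µg/ml. PDCD1 stood at 218, 191 and 179 CPM (log2 difference 0.28 ± 0.08, adjusted p = 0.0698, against 0.01 µg/ml). CD69 stood at 11.2, 13.5 and 12.2 CPM, with the 1 µg/ml library lowest.

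RAC2, a small GTPase of blood cells, stood at 298 CPM against 227 and 228 CPM, above all 9 antibody libraries (250 to 276 CPM). CHCHD10, a mitochondrial protein, stood at 64.8, 45.9 and 46.3 CPM. PPDPF stood at 97.1, 71.6 and 62.5 CPM, with antibody libraries between 72.8 and 82.1 CPM. MTRNR2L12 and the mitochondrial tRNA MT-TY were also higher. The mitochondrial mRNAs were not called: 11 of 13 had a positive difference in each comparison, with medians of 0.19 and 0.19. MT-CO3 stood at 5813, 4531 and 4361 CPM (adjusted p = 0.387 and 0.259), while MT-ATP6 stood at 3322, 3377 and 3638 CPM and so was highest at 0.01 µg/ml.

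Among the genes called lower in the 1 µg/ml library, SNHG12 differed by -1.11 ± 0.18 log2 (SE, adjusted p = 0.00677) and -1.08 ± 0.18 (adjusted p = 0.00325). CCNL1, a cyclin that acts in splicing, stood at 30.7, 48.1 and 45.6 CPM (adjusted p = 0.00677 and 0.00653). CLK1, a kinase of splicing factors, stood at 11.3, 18.6 and 16.4 CPM (adjusted p = 0.0129 and 0.0486), and was called in neither comparison with the common dose factor. Of 19 genes of CLK kinases and SR splicing factors CLK1 alone was called, and the list medians were -0.02 and -0.02 against -0.01 and -0.01 over all genes tested. RABGGTB and TAF1D, the latter a factor of RNA polymerase I, were lower too, TAF1D at 55.8, 76.8 and 77.2 CPM. Of 20 host genes of small nucleolar RNAs, SNHG12 and SNHG1 were called lower than at 0.1 µg/ml and SNHG12 than at 0.01 µg/ml. Over all genes tested 0.142% and 0.270% were called lower. Of 6 nuclear long noncoding RNAs tested none was called, and with the common dose factor 1 was called lower in each comparison. MALAT1 stood at 128, 229 and 211 CPM, with differences of -0.84 ± 0.41 (adjusted p = 0.586) and -0.73 ± 0.41 (adjusted p = 0.596). DESeq2 gave no adjusted p for SNHG12, CCNL1 and CLK1 in either comparison. These 3 lists were chosen after their values were seen.

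For some genes the 1 µg/ml library was below every other library. RPS2P5, a processed copy of a ribosomal protein gene, stood at 233, 293 and 325 CPM, against 246 to 394 CPM in the antibody libraries. MINOS1, a protein of mitochondrial cristae, stood at 41.1, 57.9 and 62.1 CPM, against 46.0 to 67.1 CPM. SEC61G, a subunit of the translocation channel of the endoplasmic reticulum, stood at 50.9, 63.0 and 66.4 CPM, against 54.5 to 69.3 CPM, and was called against 0.01 µg/ml alone (adjusted p = 0.0146, and 0.0698 against 0.1 µg/ml).

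**Figure D4:**
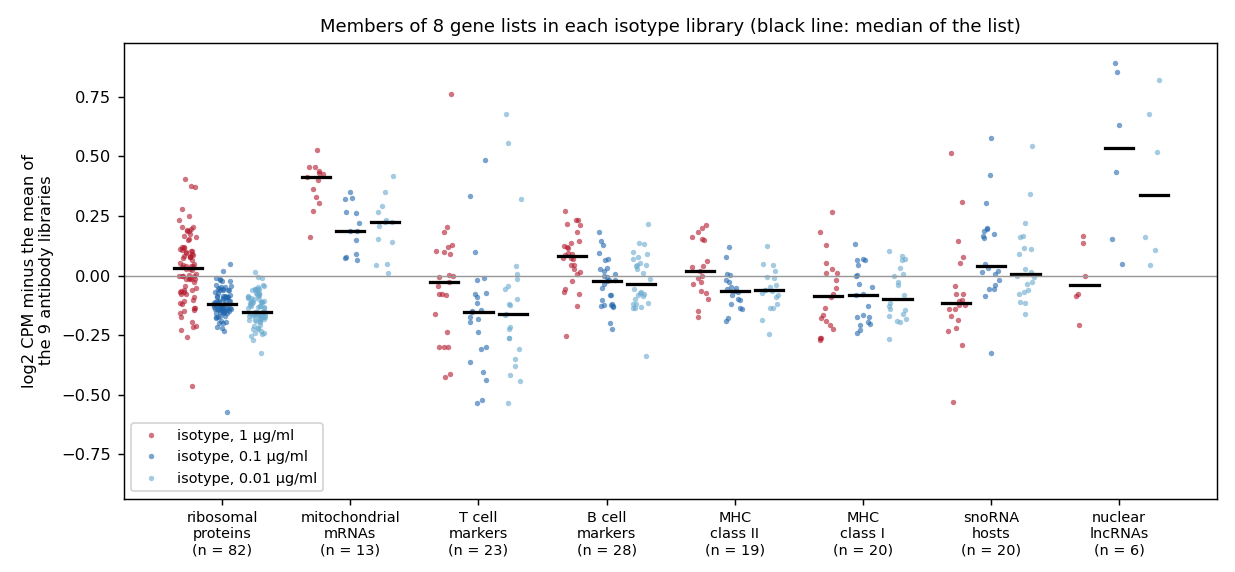
Log2 CPM of each tested member of 8 gene lists minus its mean over the 9 antibody libraries, in each isotype library, with the list's median as a black line. Ribosomal proteins and T and B markers lie higher at 1 µg/ml than at 0.1 and 0.01 µg/ml, whereas nuclear long noncoding RNAs lie lower.

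Differences followed the deposited gene length, which need not be the length of an mRNA, and GC content. Among 10156 genes in 5 bins of nearly equal size, the shortest (66 to 2971 bp) had a median log2 difference of 0.06 for 1 against 0.1 µg/ml and 0.07 for 1 against 0.01 µg/ml. In the longest (8324 to 79078 bp) it was -0.05 and -0.06. Against the mean of the antibody libraries, the longest bin stood at 0.02, 0.07 and 0.08 and the shortest at -0.01, -0.08 and -0.09. By GC content the isotype libraries shared a direction: the bin with the highest GC stood at -0.06, -0.08 and -0.09 and that with the lowest at 0.04, 0.06 and 0.05. Ribosomal protein messages took 10.0%, 9.41% and 9.27% of counts, against 9.61% to 10.8% in the antibody libraries. The part of length or GC content in the calls was tested for length only, by an offset that removes each library's trend: 104 higher and 31 lower genes were then called against 0.1 µg/ml, and 204 and 40 against 0.01 µg/ml.

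**Figure D5:**
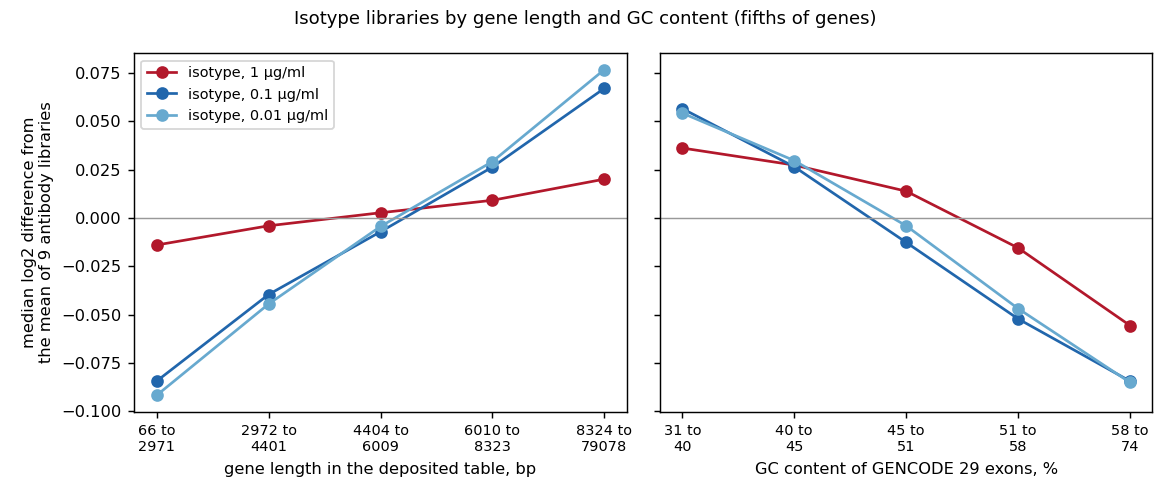
Median log2 difference of each isotype library from the mean of the 9 antibody libraries in 5 bins of genes by length (left, bp) and by GC content (right, %). The 0.01 µg/ml library rises from -0.09 to 0.08 with length, the 0.1 µg/ml library from -0.08 to 0.07, the 1 µg/ml library from -0.01 to 0.02, and all 3 fall with GC content.

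A trend on isotype dose was then fitted over the 3 libraries as a slope per 10-fold dose. With it 115 genes rose with dose (0.740% of those tested) and 18 fell (0.116%). They included 14 of 82 ribosomal protein genes, TRBC1, TRBC2, IGKC, VPREB3, CD27 and JUND, an AP-1 member that stood at 118, 104 and 91.3 CPM (slope 0.19 ± 0.04 log2, SE, adjusted p = 0.0138). PPDPF had a slope of 0.32 ± 0.04 (adjusted p = 0.000223) and DDX6, an RNA helicase of mRNA decay, stood at 345, 313 and 263 CPM. Genes that fell with dose included ANKRD12, NBPF9, USP34 and ESRRA. Without the 1 µg/ml library no gene was called, with 319 at an unadjusted p under 0.05, and without the 0.01 µg/ml library 76 were called. The dose and the library that stood apart cannot be told apart, since each dose had 1 library.

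Lastly, the 3 isotype libraries were set against the mean of the 3 antibody arms, with dose as a factor. In this comparison 298 genes were higher in isotype (1.92% of those tested) and 304 lower (1.96%), with a median absolute log2 difference of 0.20 among the calls. Without the 1 µg/ml library 983 genes were called, without the 0.01 µg/ml library 160, and without the 0.1 µg/ml library none, although 1817 had an unadjusted p under 0.05. With the T minus B marker level as a covariate 62 genes were higher and 119 lower, and with the length offset 127 and 244.

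Among the higher genes with the smallest p were ZNF121, ZNF37A, CHD1, a chromatin remodeller, RIF1, a regulator of replication timing, NFAT5 and JMJD1C, with lengths of 7251 to 18166 bp. E2F8, a repressor of cell cycle genes (4140 bp), stood at 31.9, 31.9 and 30.9 CPM, above the 24.1 to 27.4 CPM of all antibody libraries (log2 difference 0.29 ± 0.05, SE, adjusted p = 0.00392). PPRC1, a coactivator of mitochondrial genes (6095 bp), stood at 103, 113 and 111 CPM, above 81.5 to 102 CPM (0.27 ± 0.04, adjusted p = 0.00392). ELK4 (12142 bp) and MOB1B (8801 bp) were also among them. Of 6 nuclear long noncoding RNAs, KCNQ1OT1, NEAT1 and TUG1 were higher. TUG1 stood at 169, 171 and 172 CPM against 142 to 169 CPM, with the 1 µg/ml library close to the other 2, unlike NEAT1.

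Counts of lower genes in the lists that follow stand beside 1.96% of all genes tested called lower and 1.92% called higher. ISG15, a ubiquitin-like protein induced by interferon, stood at 49.4, 47.6 and 47.3 CPM against 47.0 to 63.8 CPM, a log2 difference of -0.26 ± 0.04 (SE, adjusted p = 0.00392). Of 33 interferon response genes ISG15 and BST2 were lower and EIF2AK2 higher, and nothing is read from so few. Of 20 class I genes 4 were lower: HLA-F, the peptide transporter TAP1, and PSMB8 and PSMB9 of the immunoproteasome. PSMB8 stood at 128, 127 and 127 CPM against 127 to 163 CPM (-0.19 ± 0.04, adjusted p = 0.0107). None of the 19 class II genes was called.

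Of 21 sterol genes FDPS, CYP51A1, FDFT1 and MVK were lower and none higher. FDPS, which makes farnesyl diphosphate, stood at 177, 180 and 173 CPM, below the 186 to 221 CPM of all antibody libraries (-0.23 ± 0.04, SE, adjusted p = 0.00462). Of CYP51A1's exon bases 83.2% are shared with other genes in GENCODE 29. Of 82 ribosomal protein genes 10 were lower and none higher, with a median of -0.07 against 0.00 over all genes tested, and without the 1 µg/ml library 25 were lower but without the 0.01 µg/ml library none. SIT1, an adaptor that restrains TCR signals, stood at 79.7 CPM or below against up to 102 CPM (-0.25 ± 0.04, adjusted p = 0.00392). SIT1 was 1 of 2 genes called lower among 37 of proximal TCR signalling, with PTPN6, and the list median was -0.03 against 0.00 over all genes tested. ID3, an inhibitor of E proteins, stood at 57.7, 51.7 and 51.4 CPM against up to 75.1 CPM (-0.28 ± 0.05, adjusted p = 0.00393).

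CAPG, an actin-capping protein, RHOC, a small GTPase, IGSF8 and MRPL41 were lower as well. MRPL41 stood at 50.9, 50.2 and 50.4 CPM, and all 9 antibody libraries lay at 51.7 CPM or above. Of 40 immediate early genes JUNB alone was called, lower at 115.5, 106 and 102 CPM against 111 to 129 CPM (adjusted p = 0.0397), and 8 of 40 had a positive difference. A count of 1 in 40 is close to the share over all genes. Of 18 cytokine genes tested IL32 was lower. XCL1 was called lower too, but with 1, 0 and 2 counts it passed the filter through the antibody libraries alone, so its call is no support for a difference of the list. Of 29 checkpoint and costimulatory genes TNFRSF14, LGALS9 and TNFSF9 were lower. CD69 was not called (-0.76 ± 0.30, adjusted p = 0.229), and neither were PDCD1 (-0.12 ± 0.04, adjusted p = 0.119), LCK (-0.13 ± 0.04, adjusted p = 0.0759) and MS4A1 (0.06 ± 0.04, adjusted p = 0.397). Of 23 T markers TRBC1 and GATA3 were lower, the latter a regulator of T cell development, and 4 of 23 had a positive difference, with a list median of -0.11. No B marker was called. All 13 mitochondrial mRNAs had a positive difference, with a median of 0.25, and none was called.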

How the data were processed

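RNA of a Jurkat and Raji co-culture was measured in 12 libraries of 23593973 to 36581754 counts, grouped by the treatment label. The authors deposited raw counts per gene symbol with a gene length in base pairs, per the file headers. The submitters' processing notes name the build GRCh38 and the tools STAR 2.5.2b, Trimmomatic 0.36, Subread 1.5.2 with featureCounts, and DESeq2. Annotation release, strand setting and treatment of multi-mapped reads: not given in the sources used here. The labels name polyA RNA as the molecule, while the extraction text names total RNA. The 9 deposited comparison tables were not used, nor were 4 count columns that match no sample and 36 per-sample columns in those tables.

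Genes were filtered with filterByExpr (minimum count 10), which left 15535, scaled by TMM and tested with edgeR 4.0.16 in R 4.3.3 (quasi-likelihood F test, robust, Benjamini-Hochberg, threshold 0.05) over all 12 libraries. Pairs of isotype libraries were tested with a coefficient for each isotype library and a level and slope for each antibody arm. Dose slopes used arm plus a slope per arm, and arm means used arm plus dose as a factor. Log2 CPM had a prior count of 2. Chromosome positions and gene types came from GENCODE 29 and promoters from the RefSeq table. The scripts were tested on simulated data. The members, gene lists and tests were chosen with earlier results of these data known.

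Genes were named by this rule: the markers CD3E, LCK and MS4A1, the genes of the labels, IL2, IFNG and CD69, the 15 highest by counts and by TPM, members needed to describe a list, the 10 calls with the smallest p in each direction, and the 15 with the largest range. Genes outside it, such as MALAT1 and the ribosomal protein, splicing and small nucleolar RNA host lists, were chosen after their values were seen. Alternatives were other scaling, no filter, DESeq2 1.42.0, a length offset, other designs and leaving out each library. Poisson intervals and floors cover counting error only, because PCR reads lacking molecular identifiers do not stand for separate molecules. Figures were drawn with matplotlib 3.10.9 in Python 3.11.15.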

Additional observations from a re-analysis of the deposited data

How the results depend on the processing

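No paired analysis was possible because the labels give no replicate numbers that pair libraries. Arms were matched by dose in the comparison of isotype with the antibody arms, and without the dose term it called 436 genes against 602. Genes called at 1 against 0.1 µg/ml numbered 34 with library size only, 252 with no filter, 43 with DESeq2, 135 with the length offset and 13 with a common dose factor for the antibody arms, against 73. At 1 against 0.01 µg/ml they numbered 384 with no filter, 78 with DESeq2 and 14 with the dose factor, against 185. Leaving out each antibody library in turn gave 68 to 313 and 137 to 499 calls, with the highest counts when an anti-PD1 library was left out (292 to 313 and 454 to 499). At 0.1 against 0.01 µg/ml it gave 0 calls throughout, as did every other alternative. The slope gave 38 calls with library size only and 398 with no filter, against 133, and 0 to 295 when each library was left out (0 when the 1 µg/ml isotype library was dropped, 76 when the 0.01 µg/ml one was, 76 to 78 without an anti-LAG3 library, 263 to 295 without an anti-PD1 library). Isotype against the antibody arms gave 945 with no filter, 371 with the length offset and 181 with the marker covariate, against 602. Leaving out each library gave 0 to 1180, namely 0, 160 and 983 when the 0.1, 0.01 and 1 µg/ml isotype libraries were dropped, 370 for anti-LAG3 at 0.1, 298 for anti-PD1 at 0.01, and 287 and 1180 for the combination at 0.1 and 0.01 µg/ml. The cause was not tested. The isotype spread was 0.0677 with genes of at least 100 counts and 0.0555 to 0.0921 with each isotype library left out. The T minus B level was -1.11, -1.09 and -1.11 with markers of at least 10 CPM, -0.86, -0.90 and -0.80 by the median of markers, and -1.17, -1.19 and -1.16 on log2 TPM. Of 1308 values of the calls named for their small p under these alternatives, 1210 stayed called, 98 lost the call and 0 changed direction. Another 32 values had no adjusted p in DESeq2 and are not in this tally (15, 8 and 9 of 20 calls at 1 against 0.1, at 1 against 0.01 and for the slope). The lost calls were not spread evenly. With the common dose factor 13 of 20 were lost at 1 against 0.1 µg/ml and 15 of 20 at 1 against 0.01 µg/ml. All 20 slope calls were lost without the 1 µg/ml isotype library. All 20 calls of isotype against the antibody arms were lost without the 0.1 µg/ml isotype library. Leaving out a library from an antibody arm leaves no residual freedom for that arm where a dose trend is fitted, so its scatter is then taken from the other arms. Depth limits statements on LAG3, IL2, IFNG and other genes with few counts.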
